A study of Mus musculus with 4 samples.

Results

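The genes described here encode the proteins of the mitochondrial ribosome. They were taken from the deposited table of liver RNA by symbol, as every row whose name starts with Mrpl or Mrps followed by a digit. The rule found 77 of 24421 rows, 48 named for the large subunit (Mrpl) and 29 named for the small subunit (Mrps), and used no measured value. All 77 reached the mean of at least 1 FPKM that was required for a test. FPKM is a fragment number divided by transcript length and by the size of the library, so levels of different genes can be compared.

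The samples were livers of mice after hepatectomy, the surgical removal of part of the liver. Control mice received fibrin gel alone and gelADSC mice received ADSC, a common short form of adipose-derived stem cells, placed in the same kind of gel, so that gel and surgery were common to both groups. Each group has 2 libraries, called by the numbers of the deposited columns, control libraries 1 and 3 and gelADSC libraries 2 and 3. No source used here gives the strain, age or sex, the time after surgery, where the ADSC came from or which animal each sample is from. The p-values therefore measure only how far these samples differ, and that spread may be technical.

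Mitochondria carry their own ribosome, which translates the few messenger RNAs of the mitochondrial genome into membrane subunits of the respiratory chain and of ATP synthase. Its ribosomal RNAs come from mitochondrial DNA, while all its proteins are encoded in the nucleus, made in the cytosol and imported. Some of them descend from bacterial ribosomal proteins and others occur only in mitochondrial ribosomes. Hepatocytes are rich in mitochondria, and the liver restores its mass after hepatectomy by growth and division of the remaining cells. No symbol of a mitochondrially encoded gene is among the rows used here, so only the nuclear side was measured.

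Promoters of genes for mitochondrial ribosomal proteins are known for sites of ETS family factors such as GABPA, of NRF1 and of YY1. RefSeq promoters (GRCm38.p6, 250 bases before to 50 after the start) matched 68 of the 77 symbols. The letters CCGGAAG (ETS), searched on both strands, were in 25 of the 68 promoters, or 36.8%, against 9.93% of 27025 genes in the table and 20.9% of the 8412 that were also tested here. GCATGCGC (NRF1) was in 8 promoters, or 11.8%, against 3.05% of all and 6.19% of tested genes. AAGATGGC (YY1) was in 12, or 17.6%, against 3.19% and 5.56%. The general promoter letters GGGCGG (Sp) were in 34 of the 68, against 68.4% of tested genes, and CCAAT in 39.7%, against 42.8%. CACGTG (E-box) was in 5 and TGACGTCA (CRE) in 2 of the 68. These matches are letters in a window and not measured binding.

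The 250 bases upstream of 4 genes that were lower in gelADSC are shown because each holds an ETS or NRF1 match there, and none has a coding gene starting head to head beside it. Capitals mark complete matches to the ETS and NRF1 letters on either strand.
Mrpl52, chr14:54426659-54426908, plus strand: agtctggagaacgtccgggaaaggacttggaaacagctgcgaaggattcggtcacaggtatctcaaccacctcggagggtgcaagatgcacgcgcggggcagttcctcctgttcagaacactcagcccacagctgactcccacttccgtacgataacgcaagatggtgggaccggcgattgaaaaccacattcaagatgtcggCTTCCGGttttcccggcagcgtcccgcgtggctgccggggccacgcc
Mrpl33, chr5:31613701-31613950, plus strand: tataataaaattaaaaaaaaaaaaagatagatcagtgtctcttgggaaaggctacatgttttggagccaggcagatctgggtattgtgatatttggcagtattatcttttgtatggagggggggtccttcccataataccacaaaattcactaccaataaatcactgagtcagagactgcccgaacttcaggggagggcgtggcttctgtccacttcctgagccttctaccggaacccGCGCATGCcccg
Mrpl17, chr7:105811088-105811337, minus strand: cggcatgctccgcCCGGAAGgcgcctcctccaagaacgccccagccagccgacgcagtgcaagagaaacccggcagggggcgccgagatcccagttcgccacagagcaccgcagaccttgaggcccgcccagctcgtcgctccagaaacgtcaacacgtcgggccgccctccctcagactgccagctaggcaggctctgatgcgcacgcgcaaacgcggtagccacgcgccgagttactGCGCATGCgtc
Mrps18a, chr17:46110754-46111003, plus strand: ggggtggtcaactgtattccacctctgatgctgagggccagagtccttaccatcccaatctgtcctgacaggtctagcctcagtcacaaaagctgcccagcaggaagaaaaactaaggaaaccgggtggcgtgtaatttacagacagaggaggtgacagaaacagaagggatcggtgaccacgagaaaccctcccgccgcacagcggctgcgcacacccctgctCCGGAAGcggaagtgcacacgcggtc
Of the 11 members called lower below, 7 had an ETS match in the full window, 3 an NRF1 match and 1 a YY1 match. Among the other 57 members with a promoter the numbers were 18, 5 and 11. Differences between these shares were not tested. Mrpl52 has 2 ETS matches on the opposite strand, of which the one past the start is not in the bases shown. The ETS match of Mrpl33 spans the start and is not complete there.

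Depth was read from the smallest steps of the values, which put the libraries at roughly 18100000 to 24400000 reads. With exon lengths of GENCODE M21, the members' values correspond to between about 98.3 and 4798 reads per library. Hepatocyte markers were high in all libraries (6 genes, summed 33468 to 52690 FPKM). Summed markers of bile duct (4 genes) were 20.2 and 13.1 FPKM in control and 5.53 and 5.93 FPKM in gelADSC. Most of that gap was Sox9 (11.8 and 9.48 against 2.02 and 1.52 FPKM), and Krt7 and Epcam overlapped between groups. Summed markers of monocytes and neutrophils (5 genes) were 138 and 149 against 235 and 68.7 FPKM. Lyz2 made up 165 FPKM of the sum in gelADSC library 2, whereas Ly6c2, Ccr2 and S100a8 read lower in both gelADSC libraries than in the controls. Kupffer cell and macrophage markers (5 genes) summed to 144 to 257 FPKM over the libraries, endothelial markers (5) to 66.97 to 77.2 FPKM, stellate and fibroblast markers (6) to 67.7 to 143 FPKM and B and T cell markers (4) to 0.122 to 1.25 FPKM. The fat cell markers Adipoq, Plin1 and Lep summed to 0.971 FPKM in control library 1 and 1.01 FPKM in gelADSC library 2 and were listed at 0 in both other libraries. By limma, 1 hepatocyte marker rose (Serpina1c), 1 bile duct marker fell (Sox9), 2 stellate cell markers rose (Lrat and Reln), and of the endothelial markers 2 rose and 1 fell. Of all tested genes 17.5% fell and 6.92% rose. Of the 6 hepatocyte markers 3 changed downward and 3 upward, and Apoa1 read 11512 and 13132 against 6497 and 8784 FPKM without passing. Of the 6 stellate and fibroblast markers 1 changed downward (Col1a1) and 5 upward. The part of these cell types in the results was not tested. In bulk liver, fewer cells of a type and less RNA per cell cannot be told apart.

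Most mitochondrial ribosomal protein genes read somewhat lower in gelADSC, but few passed the test, and no larger share of them than of all genes. The log2 change (gelADSC minus control, of log2(FPKM + 1)) was below 0 for 72 of 77 members, 93.5%, against 68.8% of the 11070 tested genes. At a limma adjusted p under 0.05, 11 members fell and 0 rose, which is 14.3% lower, where 17.5% of all tested genes were lower and 6.92% higher. By subunit, 6 of 48 large subunit genes fell (12.5%) and 5 of 29 small subunit genes (17.2%). At an unadjusted p under 0.05, 28 members were lower (36.4%) and 0 higher, beside 29.5% and 10.4% of all tested genes. The median log2 change was -0.39 for the large and -0.37 for the small subunit, beside -0.25 for all tested genes. The shift of all genes was larger where low levels were left out. With a minimum mean of 5 FPKM (7046 genes), the median was -0.33 for all genes and -0.38 for the members. Below 0 there were then 73.3% of all genes and 93.3% of members. The middle 50% of members lay between -0.57 and -0.24, and those of all genes between -0.57 and 0.10.

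The whole table was shifted downward in gelADSC, and median ratio scaling, which moves the median of all genes from -0.25 to 0.00, took most of the members' shift with it. Their median was then -0.11 for the large and -0.10 for the small subunit, with 52 of 77 below 0 (67.5%, beside 50.1% of all genes). Under this scaling 4 members were lower (Mrpl52, Mrpl33, Mrpl17 and Mrps18b) and Mrpl14 was higher, where 8.56% of all genes were lower and 8.60% higher. Quantile normalization, which gives all libraries 1 distribution, left Mrpl52, Mrpl17 and Mrps18b lower and Mrpl14 and Mrpl49 higher (all genes 9.03% lower and 8.41% higher). The calls also turned on single libraries. Without control library 1, 0 members were called by limma (11 lower and 1 higher at an unadjusted p under 0.05, beside 17.2% and 8.22% of all genes), and 2.94% of all genes were then lower and 2.52% higher. Without control library 3, 4 members were lower (all genes 15.9% lower, 4.99% higher). Without gelADSC library 2, 3 were lower (all genes 11.0% lower, 7.36% higher), and without gelADSC library 3, 7 (all genes 14.1% lower, 6.68% higher). Other settings gave 11 members lower with a pseudocount of 0.1 (all genes 18.4% lower, 7.39% higher) and 7 with a pseudocount of 5 (15.8% and 6.36%). They gave 1 with no filter on low values (4.16% and 2.99%), 21 with a minimum mean of 5 FPKM (27.4% and 8.60%) and 7 with no mean-variance trend (16.6% and 6.93%).

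**Figure D1:**
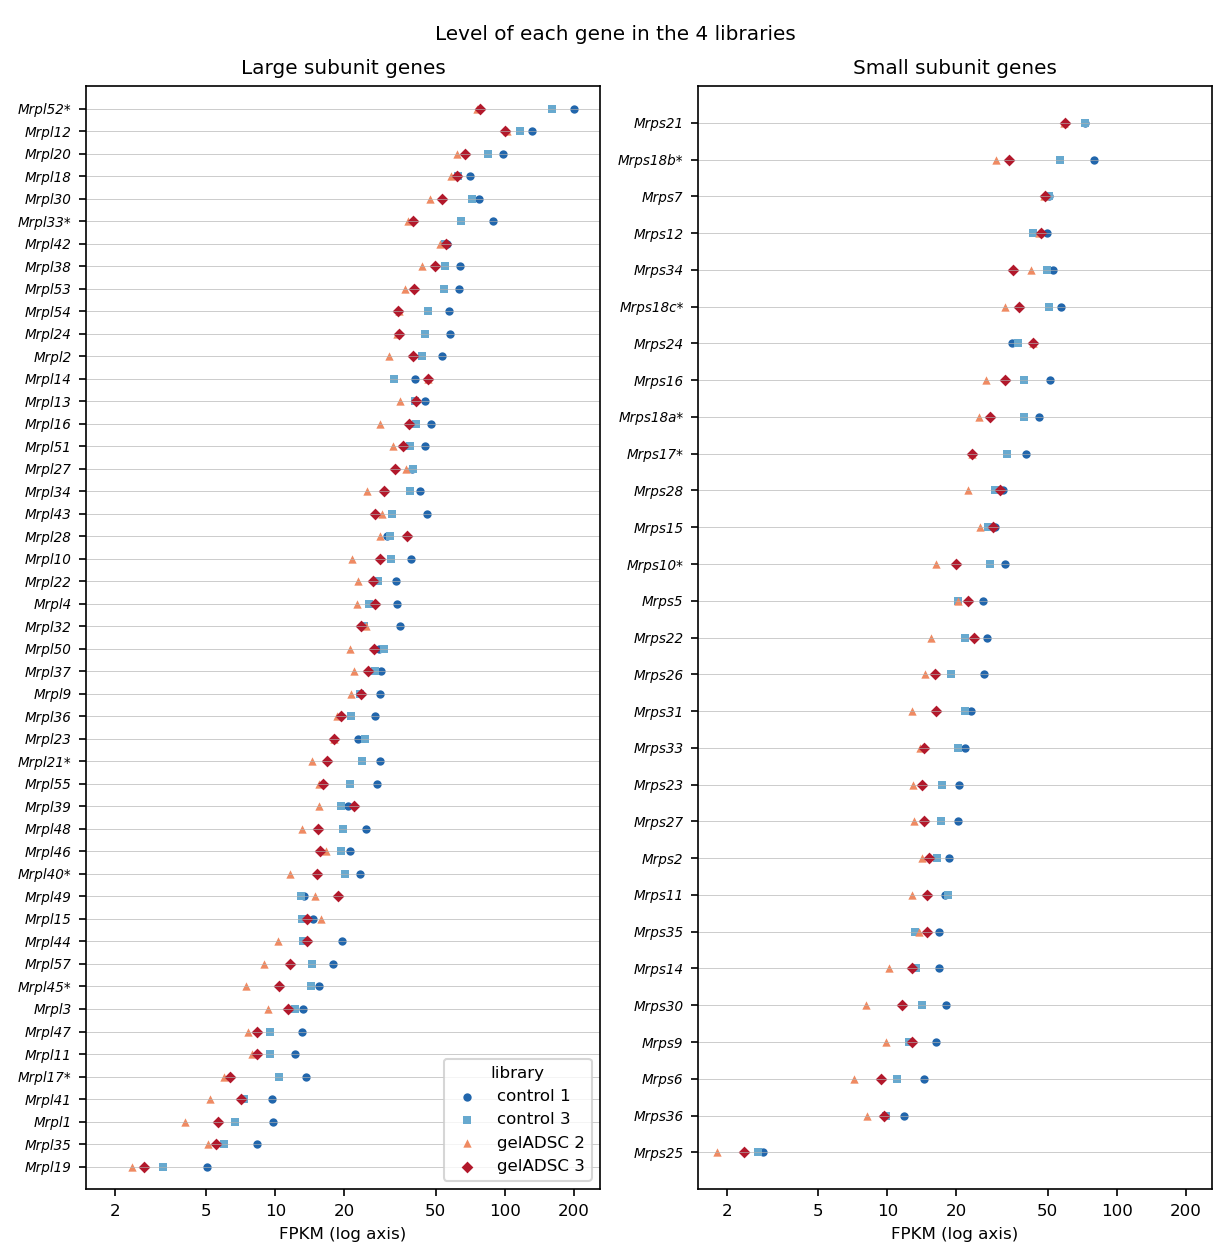
Level of all 77 genes in each library (FPKM, log axis), ordered by mean level within each subunit; each point is 1 library, and an asterisk marks the 11 genes with a limma adjusted p under 0.05. Most genes read highest in control library 1 and lowest in gelADSC library 2, and the groups are widest apart for Mrpl52, Mrps18b, Mrpl33 and Mrpl17.

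Groups did not overlap for 58 members on the lower side (75.3%) and 3 on the higher side, where 50.5% and 19.2% of all tested genes did so. With median ratio scaling the members were 34 (44.2%) and 14, beside 35.0% of all genes on each side. The libraries of a group differed too. Control library 1 read higher than control library 3 for 70 of 77 members, with a median log2 difference of 0.23, beside 0.21 over all tested genes. GelADSC library 3 read higher than gelADSC library 2 for 66 of 77, with a median of 0.15, beside 0.10. Against the control mean, the large subunit median was -0.43 in gelADSC library 2 and -0.30 in gelADSC library 3, and the small subunit median -0.48 and -0.29.

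**Figure D2:**
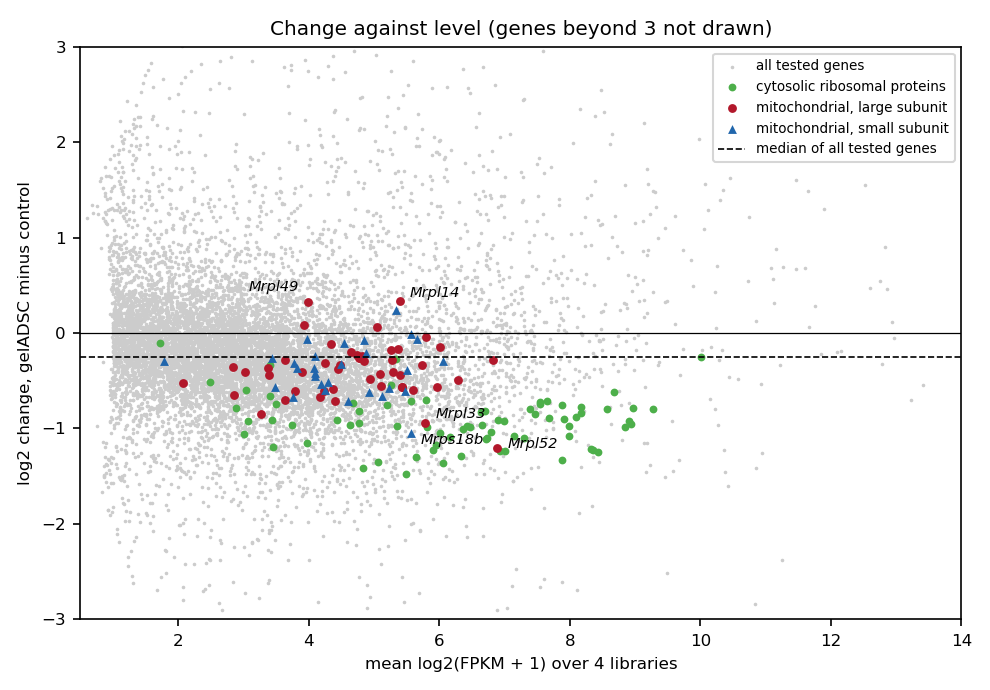
Log2 change (gelADSC minus control) against mean log2(FPKM + 1) over 4 libraries for all tested genes (grey, 93 genes outside the axes not drawn), the members by subunit and cytosolic ribosomal proteins. The members lie mostly between 0 and -0.7 around the dashed median of all genes at -0.25, with Mrpl52, Mrps18b and Mrpl33 among the cytosolic ribosomal proteins.

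Mrpl52 encodes a large subunit protein with no bacterial relative and was the member with the highest mean level. It read 200.5 and 160.2 FPKM in control libraries 1 and 3 and 75.8 and 78.2 FPKM in gelADSC libraries 2 and 3. The gelADSC values were close together and the controls were both far above them. The mean fell from 180.3 ± 28.5 to 77.0 ± 1.69 FPKM (SD, n = 2 in each group). This was a log2 change of -1.21 with an SE of 0.20 (adjusted p = 0.00418, limma). The call was kept in 10 of 11 alternatives and missed the threshold without control library 1 (adjusted p = 0.0523).

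The grouping used here put 21 large subunit genes with a bacterial relative outside the stalk, the central protuberance and the tunnel exit. Of these, Mrpl33 and Mrpl21 fell (9.52%, beside 17.5% of all tested genes). Mrpl33 read 88.7 and 64.2 FPKM in control and 37.99 and 39.7 FPKM in gelADSC, without overlap (log2 change -0.94, SE 0.21, limma adjusted p = 0.0158). Its call was lost with quantile normalization (0.0554), with no filter (0.0573) and without control library 1 (0.105). Mrpl21 read 28.5 and 23.9 FPKM in control and 14.5 and 16.8 FPKM in gelADSC (log2 change -0.71, limma adjusted p = 0.0330). That call was lost in 7 of 11 alternatives, both scalings among them. Mrpl1 read 9.73 and 6.65 against 4.05 and 5.61 FPKM (log2 change -0.65, adjusted p = 0.0868). Mrpl20, the third in level, read 98.1 and 84.7 against 62.1 and 67.3 FPKM (adjusted p = 0.0899). The core proteins Mrpl3 and Mrpl4 had log2 changes of -0.28 and -0.24 (limma adjusted p = 0.316 and 0.434). These were 0.015 and 0.085 with quantile normalization and -0.015 and 0.046 with median ratio scaling.

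Around the exit of the tunnel through which the new chain leaves the ribosome, 2 of 8 genes fell (25%, beside 17.5% of all tested genes). The median log2 change of these 8 was -0.42. Mrpl17 read 13.6 and 10.4 FPKM in control and 5.996 and 6.34 FPKM in gelADSC, so that all gelADSC values lay below the controls (log2 change -0.85, SE 0.21, limma adjusted p = 0.0230). Its call held with both scalings and was lost with no filter (0.0720) and when control library 1 (0.139), gelADSC library 2 (0.101) or gelADSC library 3 (0.0621) was left out. Mrpl45, which anchors the ribosome to the inner membrane, read 15.4 and 14.4 against 7.47 and 10.3 FPKM (log2 change -0.70, limma adjusted p = 0.0459, called in 3 of 11 alternatives). Mrpl44, a relative of RNase III, read 19.6 and 13.2 against 10.3 and 13.7 FPKM, and its groups overlapped (adjusted p = 0.246). Mrpl23 read 23.0 and 24.7 against 18.03 and 18.1 FPKM (log2 change -0.38, adjusted p = 0.155).

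The stalk recruits the translation factors, and the central protuberance is a knob on the large subunit facing the small subunit. The grouping used here gave each of them 5 members, and members grouped elsewhere may also lie there. In both, all 5 read lower in both gelADSC libraries than in the controls, as did 75.3% of all members and 50.5% of all tested genes. The stalk had a median of -0.49 and 0 calls by limma (2 lower at an unadjusted p under 0.05, where 29.5% of all genes were lower). Mrpl12, its best known protein, read 131 and 117 FPKM in control and 102 and 100.3 FPKM in gelADSC. These values did not overlap, but the difference was small (log2 change -0.28, SE 0.19, adjusted p = 0.283) and was 0.01 with median ratio scaling. Mrpl10 had a log2 change of -0.49 (adjusted p = 0.126) and Mrpl11 of -0.37 (adjusted p = 0.219). In the protuberance Mrpl40 fell, from 23.5 and 20.2 to 11.5 and 15.2 FPKM (log2 change -0.68, limma adjusted p = 0.0480, called in 3 of 11 alternatives). Mrpl48, Mrpl38 and Mrpl46 had log2 changes of -0.61, -0.33 and -0.31 and did not pass (limma adjusted p = 0.0621, 0.224 and 0.245). That of Mrpl46 was 0.02 with quantile normalization and -0.03 with median ratio scaling.

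**Figure D3:**
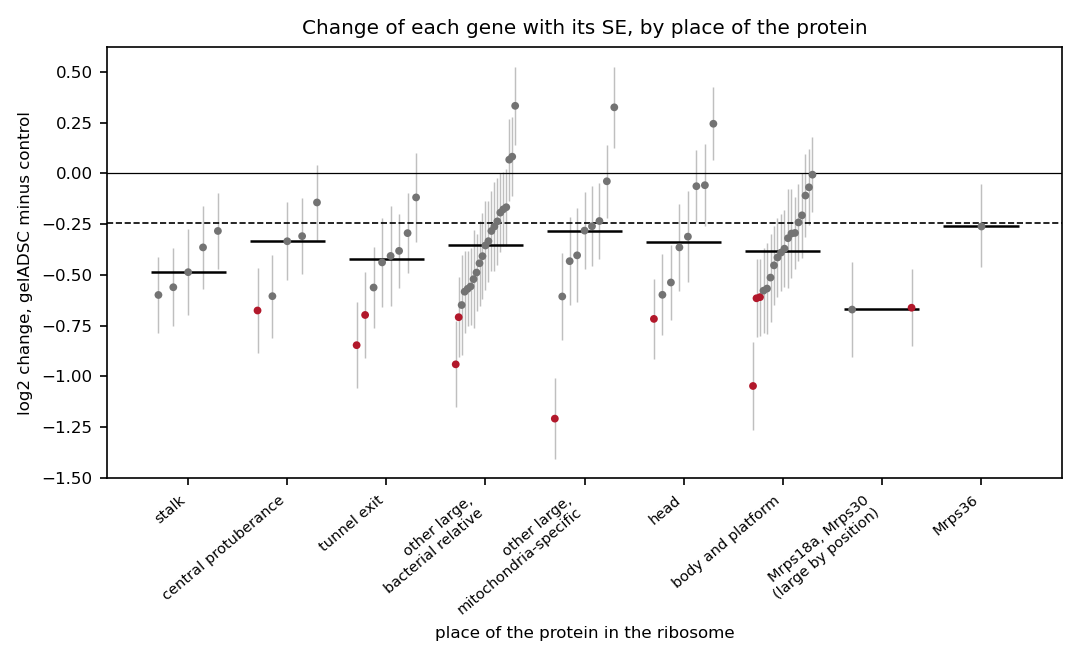
Log2 change of each gene (point, with its SE as a bar), grouped by the place assigned here to the protein in the ribosome. Red points have a limma adjusted p under 0.05. Thick lines are group medians and the dashed line is the median of all tested genes. Group medians lie between -0.28 and -0.49, apart from the pair Mrps18a and Mrps30 at -0.67 and Mrps36 at -0.26.

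The 3 paralogs of a bacterial small subunit protein all fell. Mrps18b and Mrps18c sit in the small subunit, whereas Mrps18a sits in the large subunit in spite of its name. Mrps18b read 79.3 and 56.4 FPKM in control and 29.9 and 33.9 FPKM in gelADSC, without overlap (log2 change -1.05, SE 0.22, limma adjusted p = 0.0116). Its call was lost with no filter (0.0530) and without control library 1 (0.0957). Mrps18a read 46.1 and 39.3 against 25.1 and 28.0 FPKM (log2 change -0.66, limma adjusted p = 0.0371). Mrps18c read 57.2 and 50.7 against 32.7 and 37.4 FPKM (log2 change -0.61, limma adjusted p = 0.0475). With either scaling only Mrps18b of these 3 was called. An annotated antisense transcript, Gm16279, covers 638 of the 1079 exon bases of Mrps18b, and whether strand was used in counting is not given in the sources used here.

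Mrps30 is also a large subunit protein by position. It read 18.02 and 14.2 FPKM in control and 8.07 and 11.5 FPKM in gelADSC (log2 change -0.67, adjusted p = 0.0664, and 0.0450 without gelADSC library 3). An annotated gene on the opposite strand shares 601 of its exon bases. With subunits set by position in the ribosome, 8 large and 4 small subunit genes were called lower. These counts include Ict1, named Mrpl58 today, a factor that releases stalled chains. Ict1 fell from 55.9 and 46.2 to 29.2 and 26.0 FPKM (log2 change -0.86, limma adjusted p = 0.0162). It was called with neither scaling, nor without control library 1 or gelADSC library 3. The other 5 ribosomal proteins without the Mrp name (Dap3, Aurkaip1, Chchd1, Gadd45gip1 and Ptcd3) had log2 changes from -0.43 to -0.09 and did not pass. Mrpl57, in the large subunit, had a log2 change of -0.61 (adjusted p = 0.0697).

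In the head of the small subunit, which holds part of the tRNA sites, 1 of 8 genes fell (12.5%, beside 17.5% of all tested genes), with a median of -0.34. Mrps10 read 32.5 and 28.1 FPKM in control and 16.3 and 19.8 FPKM in gelADSC (log2 change -0.72, limma adjusted p = 0.0326, called with neither scaling). Mrps31 read 23.1 and 21.8 against 12.8 and 16.3 FPKM (log2 change -0.60, adjusted p = 0.0598). Mrps7 read nearly the same in all libraries, 50.7 and 50.6 against 48.0 and 48.8 FPKM (log2 change -0.06, SE 0.18, adjusted p = 0.819). Mrps9 and Mrps14 had log2 changes of -0.31 and -0.37 (adjusted p = 0.325 and 0.233).

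In the body and platform 3 of 18 fell (16.7%, beside 17.5% of all tested genes), Mrps18b, Mrps18c and Mrps17, with a median of -0.38. Mrps17 read 40.1 and 33.1 FPKM in control and 23.5 and 23.4 FPKM in gelADSC (log2 change -0.62, limma adjusted p = 0.0478, called in 2 of 11 alternatives). Mrps12, a relative of the bacterial protein at the decoding site, read 49.8 and 43.4 against 45.8 and 46.7 FPKM, so that both gelADSC values lay between the controls (log2 change -0.01, SE 0.18, adjusted p = 0.981). Relative to the other genes that value was higher, 0.28 with median ratio scaling, but did not pass there either (adjusted p = 0.162). Mrps21, with the highest mean level of the small subunit, read 72.9 and 73.0 against 59.1 and 59.5 FPKM (log2 change -0.29, adjusted p = 0.252). Mrps16 had a log2 change of -0.58, Mrps27, a protein with RNA-binding repeats, of -0.41, Mrps34 of -0.39 and Mrps22 of -0.32, with adjusted p from 0.0766 to 0.358. Mrps2 had a log2 change of -0.24 without overlap and Mrps5 one of -0.11 with overlap (adjusted p = 0.368 and 0.720), and both lay above 0 with either scaling. Mrps36, today described as a subunit of the 2-oxoglutarate dehydrogenase complex and not of the ribosome, read 11.8 and 9.87 against 8.13 and 9.70 FPKM (adjusted p = 0.376).

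Only 5 members had a log2 change above 0, and in 3 of them, named after their values were seen, both gelADSC libraries exceeded both controls. Mrpl14 read 40.7 and 32.9 FPKM in control and 46.4 and 46.3 FPKM in gelADSC (log2 change 0.33, adjusted p = 0.232). With median ratio scaling its log2 change was 0.62 and it passed (limma adjusted p = 0.0384), as it did with quantile normalization (0.0410). Mrpl49 read 13.3 and 13.0 against 14.9 and 18.7 FPKM (log2 change 0.32, adjusted p = 0.254), and its adjusted p was 0.0502 and 0.0438 with these scalings. Mrps24, of the small subunit head, read 35.1 and 37.3 against 43.1 and 43.0 FPKM (log2 change 0.24, adjusted p = 0.341). Mrpl15 and Mrpl28 overlapped between groups, with log2 changes of 0.08 and 0.07.

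A coding gene on the opposite strand starts within 500 bases upstream of 17 of the 77 members in GENCODE M21, or 22.1%, against 9.99% of tested and 6.16% of all protein-coding genes. Such pairs share a short stretch of promoter, and their RNAs did not always read alike. Mrpl49 starts 59 bases from Fau, which encodes a cytosolic ribosomal protein fused to a ubiquitin-like protein. Fau read 243 and 193 FPKM in control and 98.8 and 97.3 FPKM in gelADSC (log2 change -1.14, SE 0.20, limma adjusted p = 0.0058), while Mrpl49 was at 0.32. Mrps18b starts 45 bases from Ppp1r10, a regulatory subunit of a protein phosphatase, which read 9.93 and 10.002 against 12.6 and 17.9 FPKM (log2 change 0.55, adjusted p = 0.0995). Of the 15 partners that were tested, 1 was called lower (Fau) and 0 higher (by limma), with a median log2 change of -0.15. Among all tested genes 17.5% were called lower and 6.92% higher. The difference between a member and its partner was not tested.

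The other genes of mitochondrial protein synthesis, taken from lists, had median shifts near that of all genes, and their calls varied between lists. Of 14 translation factors 0 were called by limma in either direction (also 0 at an unadjusted p under 0.05), with a median log2 change of -0.17. Of 25 tested genes of ribosome assembly 6 fell and 0 rose, or 24% lower beside 17.5% of all genes, with a median of -0.20, and 3 of the list were called lower with median ratio scaling and 0 without control library 1. Ddx28, an RNA helicase of large subunit assembly, fell from 23.4 and 21.4 to 8.17 and 9.76 FPKM (log2 change -1.23, SE 0.20, limma adjusted p = 0.00361). Mpv17l2 and Trub2, also known from this assembly, fell by 0.78 and 1.09 on the log2 scale. Of 13 genes of mitochondrial transcription and RNA processing 1 fell (7.69%, beside 17.5% of all genes) and 1 rose (beside 6.92% of all genes). The RNA-binding protein Slirp fell with a log2 change of -0.72, whereas Hsd17b10, a dehydrogenase that is also part of mitochondrial RNase P, rose from 57.2 and 53.5 to 142 and 107 FPKM (log2 change 1.14, SE 0.21, limma adjusted p = 0.00657).

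Of 8 tested regulators of mitochondrial biogenesis 2 fell (25%, beside 17.5% of all tested genes). With either scaling 0 of them were lower, where 8.56% and 9.03% of all genes were. The calls were also lost without control library 1. Esrra, an orphan nuclear receptor, read 16.5 and 17.6 FPKM in control and 9.67 and 9.63 FPKM in gelADSC (log2 change -0.76, limma adjusted p = 0.0217). Myc read 19.9 and 7.97 against 3.48 and 4.34 FPKM (log2 change -1.48, limma adjusted p = 0.0210), with control library 1 far above control library 3.

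Side by side with the mitochondrial set, 65 of 75 tested cytosolic ribosomal protein genes fell and 0 rose, with a median log2 change of -0.93. That is 86.7% lower, beside 17.5% of all tested genes. All 75 were below 0, beside 68.8% of all tested genes. Among them, Rpl14 and Rpl13 fell by 1.47 and 1.42 on the log2 scale. Of these 75 genes, 35 were lower after median ratio scaling, beside 8.56% of all tested genes. Most of the calls were lost without control library 1, as were most of those among all tested genes. Of 73 tested nuclear-encoded respiratory chain subunits 1 fell (1.37%, beside 17.5% of all tested genes), Ndufs7 with a log2 change of -0.87, and 0 rose, with a median of -0.19. The sum over the mitochondrial ribosomal protein genes was 2872 and 2455 FPKM in control and 1894 and 2082 FPKM in gelADSC. That over the cytosolic set was 17463 and 13594 FPKM against 7978 and 8746 FPKM. Differences between these lists were not tested.

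**Figure D4:**
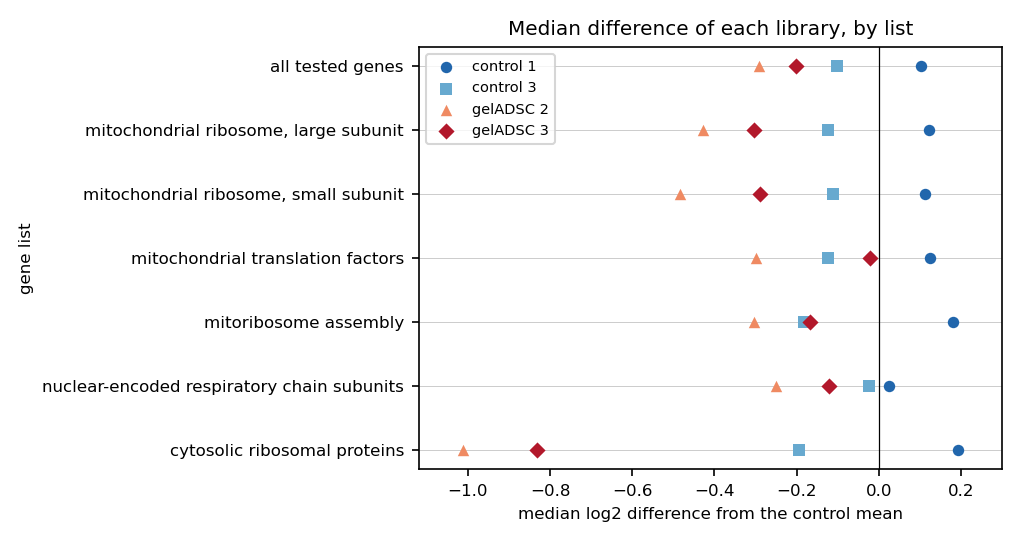
Median log2 difference of each library from the control mean, by gene list, with 1 point per library. For both subunits the gelADSC libraries lie between -0.48 and -0.29, each somewhat below all tested genes in the same library (-0.29 and -0.20). Cytosolic ribosomal proteins lie at -1.01 and -0.83.

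Levels within the ribosome ranged widely. Mean FPKM over the 4 libraries ran from 3.33 (Mrpl19) to 129 (Mrpl52) in the large subunit, with a median of 26.7, and from 2.45 (Mrps25) to 66.1 (Mrps21) in the small subunit, with a median of 22.1. Mrps25 and Mrpl19 share 3533 and 1962 exon bases with genes on the opposite strand, so their levels are uncertain. In all, 25 members share exon bases with another annotated gene, 21 of them with one on the opposite strand. Overlap on the same strand takes in 107 of 478 exon bases of Mrpl33, 174 of 940 of Mrps18c and all 695 of Mrpl53. The reference also lists 6 pseudogenes named after Mrpl23, Mrpl27, Mrpl48 and Mrps36, with which reads of these genes could be shared. Large subunit genes with a bacterial relative had a median log2 change of -0.37 (3 of 30 called lower, 10%). Those without had -0.41 (3 of 18, 16.7%), where 17.5% of all tested genes were lower. In the small subunit all 5 calls were among the 18 with a bacterial relative (27.8%), whose median was -0.34. Of the 11 without, 0 were called by limma (5 lower at an unadjusted p under 0.05, where 29.5% of all genes were lower), with a median of -0.41. On the lower side, groups did not overlap for 81.8% of those 11 and 66.7% of those 18, beside 50.5% of all tested genes. Differences by origin were not tested.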

How the data were processed

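RNA of 4 mouse liver samples was sequenced from libraries made with a stranded mRNA kit, per the labels' protocols. The deposited table holds 1 value per symbol and library, taken as FPKM because Cufflinks 2.2.1 stands in the submitters' processing notes and the values are not whole numbers. The notes also name Trimmomatic 0.38 and TopHat2 2.1.1 and the human build hg19, which cannot fit mouse symbols. No source used here gives the annotation or says whether counting used strand. Columns were assigned to groups by name, since their numbers differ from those of the titles.

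The 11070 genes averaging 1 FPKM or more entered limma 3.58.1 (R 4.3.3) as log2(FPKM + 1). Its moderated test was two-sided and allowed the variance to follow the mean. Benjamini-Hochberg adjustment covered all of them, at a threshold of 0.05. The script was tested on simulated data. Alternatives were both scalings, pseudocounts of 0.1 and 5, no filter, a minimum mean of 5 FPKM, no trend and leaving out each library. Members and lists were chosen with earlier results of these data known. Named members are, per subunit, up to 6 calls by lowest p, the 2 largest changes that missed, the 3 highest levels, and genes fixed by role. In other lists they are the 3 calls with the lowest p. One such gene is not reported here. Reads per gene are estimates, and no count test was run.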

Additional observations from a re-analysis of the deposited data

How the results depend on the processing

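For the large subunit, 6 genes were called lower. Median ratio scaling gave 3, quantile normalization 2, no filter 1 and a minimum mean of 5 FPKM 13, and leaving out a library gave 0 to 4. For the small subunit it was 5, and 1 with either scaling, 3 with a pseudocount of 5 or no trend, 0 with no filter, 8 with the minimum of 5 FPKM, and 0 to 3 with a library left out. Against 0 large subunit genes called higher, median ratio scaling gave 1 and quantile normalization 2. The large subunit median of -0.39 became -0.11 and -0.12 with the scalings and ranged from -0.55 to -0.23 with a library left out, and the small subunit median of -0.37 became -0.096 and -0.082. With no filter, 17563 genes were tested, and with the minimum of 5 FPKM, 7046, which changes the adjustment. The causes of the other shifts were not tested. No called member changed sign with either scaling. The other alternatives could not change a sign, because both gelADSC libraries lay below both controls for every called member. With a library left out, the lone library of its group is assumed to vary like the other group. No paired analysis was possible because the column numbers (control 1 and 3, gelADSC 2 and 3) are not those of the titles and the groups share only 1 of them.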
